A study of Mus musculus with 3 samples.

Results

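The keratin gene family was examined in macrophages sorted from mouse backskin during the resting phase of the hair cycle. Its members were all genes whose symbol begins with Krt and a digit, without the keratin-associated proteins, and a probe of the array was named through its RefSeq transcript. This gave 51 keratin genes on 61 probes, out of 19752 named genes. Of the 55 keratin symbols in the table of names, Krt36, Krt74, Krt83, and the pseudogene Krt8-ps had no probe.

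The study isolated CD11b+Gr1-F480+ cells, the gate of mature skin resident macrophages, by flow cytometry from CD1 mice at postnatal days 42, 55, and 69, which it treats as early, mid, and late telogen (Te, Tm, and Tl), although its text dates the first stage a little later than the sample labels do. It asked how the expression profile of these cells changes as resting hair follicles approach a new phase of growth. No treatment or transgene is named for the mice. RNA of 3 littermates was pooled for each stage, amplified as a whole transcriptome, labeled with Cy3, and hybridized to 1 Agilent array. With 1 array per stage no difference could be set against a spread between replicates, no test was possible, and no p-value is given.

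A pair of features of these arrays bears on every value given for the keratins. First, the arrays deposited for P55 and P69 are assigned the other way round in the log2 table that the authors also deposited. The P55 column of that table lay within 0.05 of the P69 scanner file for 99.9% of probes and the P69 column within 0.05 of the P55 scanner file for 99.8%, against 3.08% and 3.07% for the files of the same name. The arrays are named here as the scanner files are, so a statement on the P55 array holds for P69 if the table is right, while statements on both later arrays against P42 do not depend on it. Second, macrophage and epidermal genes were both present. All 13 macrophage markers on the array were well above background on all 3 arrays, where 66.1% of all genes were. So were 12 of the 13 keratinocyte markers outside the keratins, the exception being Cdh3 (P-cadherin), which was not on the P42 array. All 6 endothelial and all 4 T cell markers on the array were too, so the flag does not show which cells were present. Adgre1, which encodes F480, the macrophage antigen of the gate, had log2 levels of 4.83, 5.51, and 5.15 on the P42, P55, and P69 arrays, and Itgam, which encodes CD11b, had 8.95, 8.73, and 7.85.

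Keratins are the intermediate filament proteins of epithelial cells. A filament is built from pairs of an acidic type I and a basic type II keratin. The genes of each type lie in a cluster of their own, on mouse chromosome 11 (type I) and chromosome 15 (type II). The exception is Krt18, a type I gene that lies beside Krt8 on chromosome 15. Which pair a cell makes depends on where it lies: Krt5 and Krt14 in the basal layer of the epidermis, Krt1 and Krt10 in the layers above it, other pairs in the sheaths of the hair follicle and in the hair shaft, and Krt8 with Krt18 in simple epithelia. Macrophages build their cytoplasmic filaments from vimentin.

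A level is given as the log2 signal of a probe relative to the 75th percentile of its array, and a difference as the later array minus the earlier one. Differences with both signals well above background are measured. Where only 1 signal was well above background, the dim one was set to the higher of its own value and the lowest signal well above background on that array, so the difference is a bound and its fold is written as "at least". Levels of different genes cannot be compared, because each comes from its own probe. Each keratin probe had 1 spot, so its own error is unknown. Across other probes spotted 10 or more times on an array the median SD of the log2 level was 0.142, 0.123, and 0.121 on the P42, P55, and P69 arrays, which gives an SD of 0.173 to 0.188 for a difference. In pooled sorted cells, fewer cells of a type and less RNA per cell cannot be told apart.

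Of the 51 keratins, 45 were well above background on at least 1 array, 24 on all 3, and 6 on none (Krt8, Krt26, Krt33b, Krt39, Krt76, and Krt86), where 84.0%, 66.1%, and 16.0% of all genes were. The number per array hardly differed, with 32 on P42, 33 on P55, and 33 on P69, but the members did. Krt33a, Krt34, Krt82, Krt84, and Krt88 were well above background on the P42 array and on no other, where 5.12% of all genes were. Krt9, Krt25, Krt27, Krt35, Krt71, Krt75, and Krt90 were so on the P55 array only, against 1.05% of all genes. Krt12, Krt16, Krt19, and Krt20 were so on the P69 array only, against 3% of all genes. The P55 array had the highest limit of detection, with its lowest signal well above background at a log2 level of -4.04 against -4.44 for P42 and -5.01 for P69, and the fewest genes well above background, 70.4% against 77.6% and 77.0%.

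**Figure D1:**
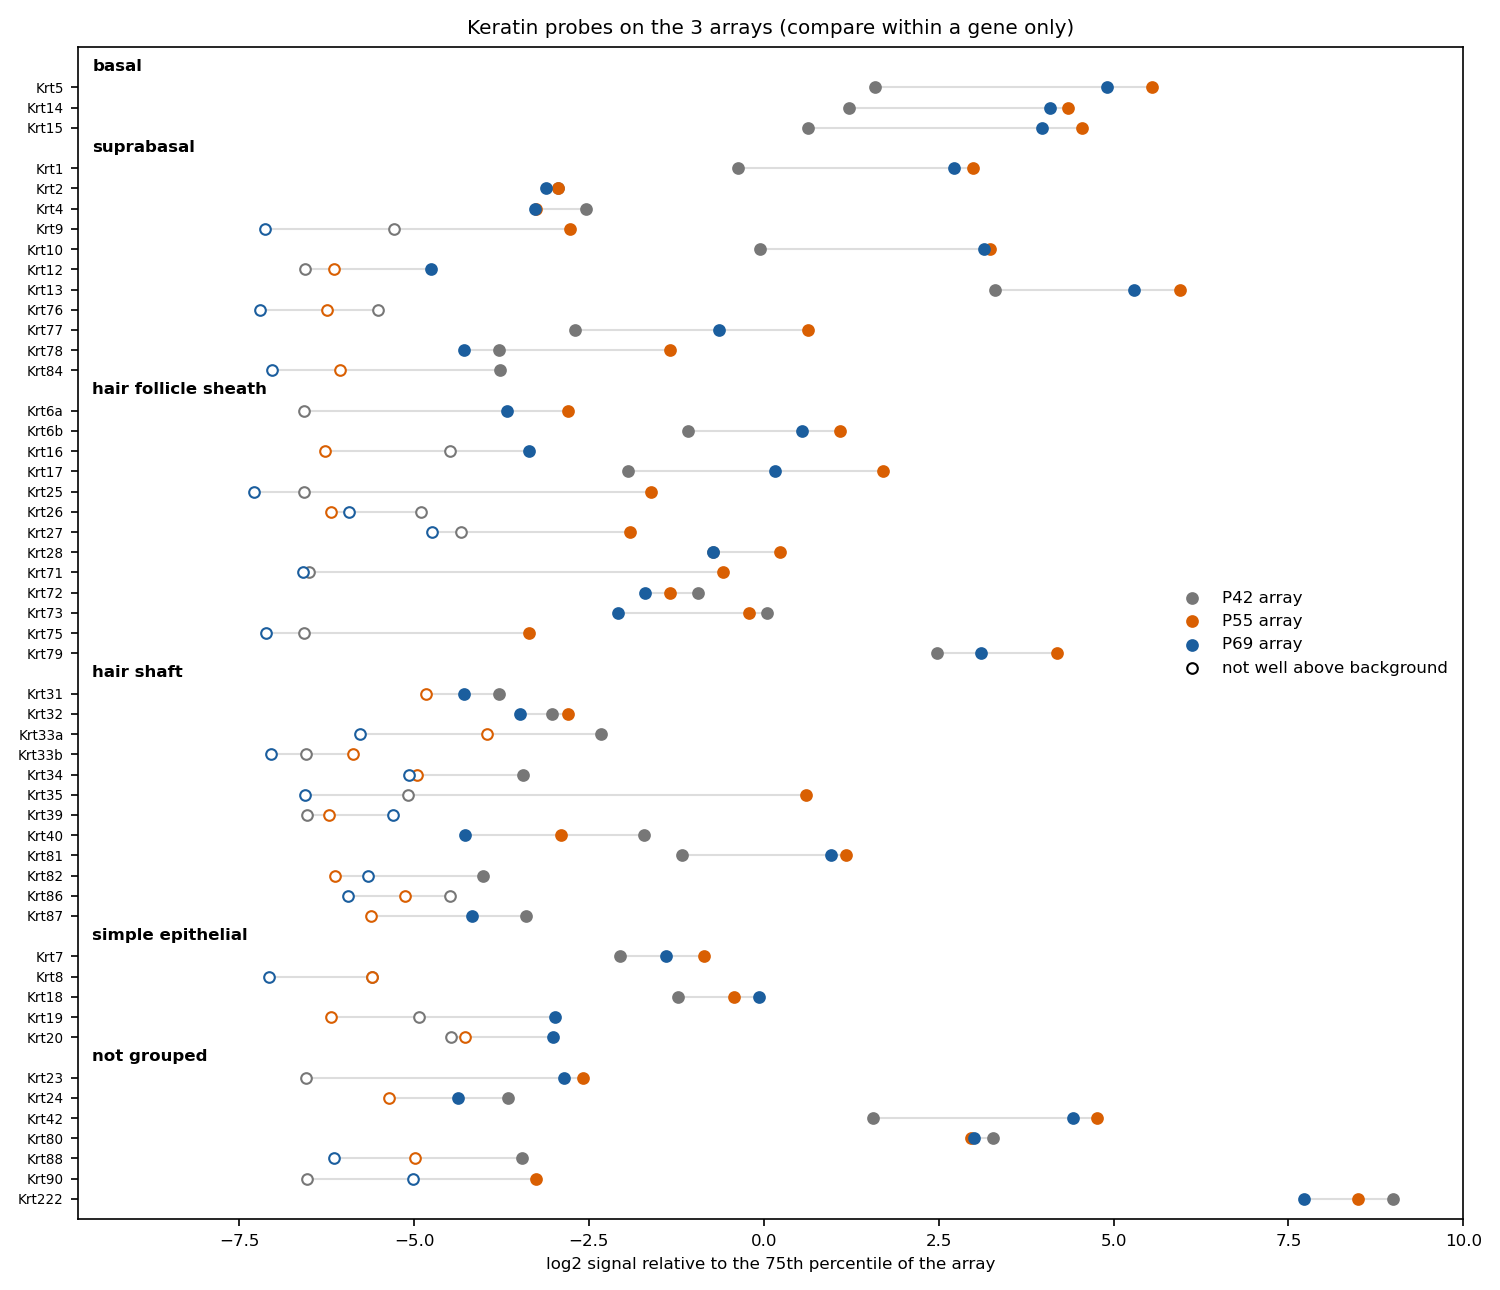
Log2 level of each of the 51 keratins on the 3 arrays, relative to the 75th percentile of the array, grouped by the site where the protein is known, filled where the signal was well above background and open where it was not. For Krt5, Krt14, and Krt15 the points of both later arrays lie together to the right of P42, and for Krt25, Krt27, Krt35, and Krt71 the P55 point is the only filled one.

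Against P42, more keratins were higher than lower on the P55 array, and about as many on the P69 array. On P69, 19 of 37 keratins with a value were above P42 and 18 below, where 55.2% of all genes were above and 44.8% below, with a median log2 difference of 0.63 beside 0.16 for all genes. This median was positive under the 5 scalings, at 0.17 to 0.46 above that of all genes, and negative with another background correction or a looser filter (-0.21, -0.13, and -0.28). At 10-fold or more, the threshold of the study's methods, 2 of 37 keratins were higher on P69 and none lower, where 0.693% and 0.482% of all genes with a value were. At 2-fold, 16 of 37 were higher and 7 lower, against 22.6% and 20.7% of all genes, so the share of lower keratins was near that of all genes.

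The P55 array stood further from P42. On it 26 of 41 keratins were above and 15 below, against 55.9% and 44.1% of all genes, with a median log2 difference of 1.20 beside 0.23 for all genes, and the keratin median was 0.97 to 2.00 above that of all genes under the 5 scalings. Of these, 7 were at least 10-fold higher and none 10-fold lower, against 1.16% and 0.335% of all genes. At least 2-fold higher were 23 keratins, and 2 were 2-fold lower, against 29.4% and 16.9% of all genes. Between the later arrays, 31 of 36 keratins were lower on P69 than on P55, against 57.0% of all genes, with a median of -0.65 beside -0.14 for all genes. Without scaling the keratin median was 0.30 and that of all genes 0.73, and under each of the 5 scalings the keratins lay 0.42 to 0.51 below all genes. With the arrays exchanged the keratin median became 0.65. In this comparison none was 10-fold higher and 3 were 10-fold lower, against 0.0673% and 0.135% of all genes, while 2 were 2-fold higher and 13 lower, against 8.12% and 11.3%. Comparisons that share the P42 array are not independent of each other.

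**Figure D2:**
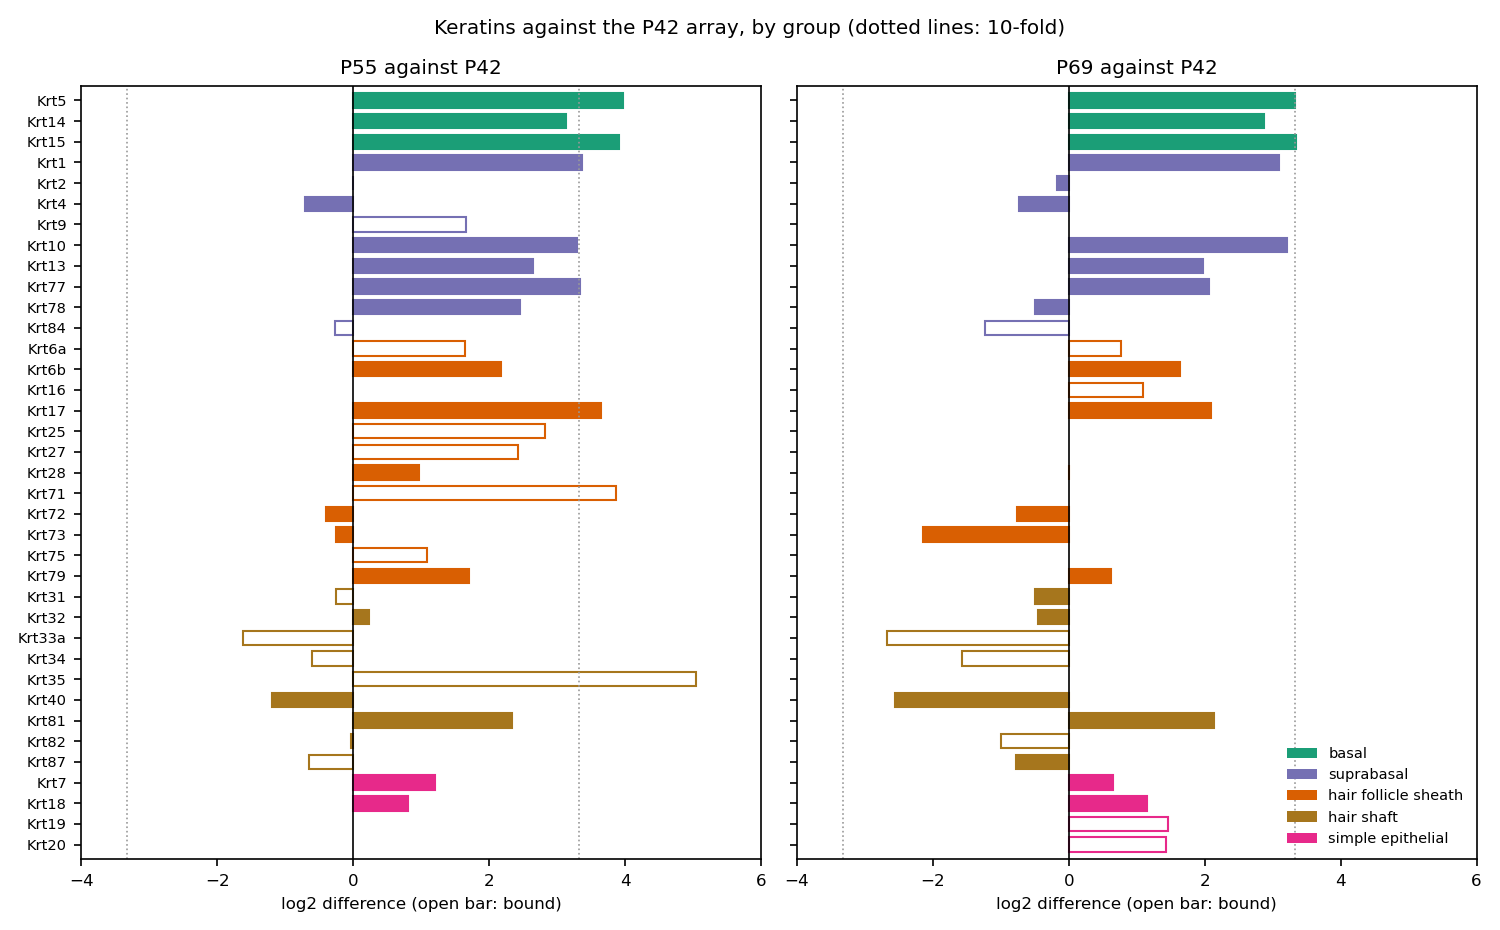
Log2 difference of each grouped keratin on the P55 array (left) and the P69 array (right) from the P42 array, with filled bars where both signals were well above background, open bars for bounds, no bar where no value could be given, and dotted lines at 10-fold. Basal and epidermal bars such as Krt5 and Krt10 are long in both panels, while Krt25, Krt27, Krt35, Krt71, and Krt75 have a bar in the left panel only.

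The 3 basal keratins were higher on both later arrays. Krt5, the type II keratin of basal keratinocytes, had log2 levels of 1.58, 5.55, and 4.91 on the P42, P55, and P69 arrays. It was thus 15.7-fold higher on P55 than on P42 (3.97 on the log2 scale) and higher by 3.32 on P69, and its second probe gave 3.65 and 3.28. Krt14, the type I partner of Krt5, had levels of 1.22, 4.35, and 4.09, which made it 8.76-fold and 7.34-fold higher. Krt15, a basal type I keratin that is abundant in the follicle bulge where hair follicle stem cells rest, had 0.63, 4.54, and 3.98, or 15.1-fold and 10.2-fold higher. For each of them both later arrays lay far above P42 and close to each other, with log2 differences of -0.26 to -0.64 between P69 and P55. The median of the 3 was 3.32 for P69 and 3.91 for P55 against P42, and it stayed between 3.12 and 4.49 under the 5 scalings, whereas the sign of its median between the later arrays (-0.57) turned with quantile normalization (0.15), with the arrays exchanged (0.57), and without scaling (0.33). In the unscaled values the median of all genes was 0.73, so the basal keratins were 0.39 below it, beside 0.42 below it at the 75th percentile.

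Other keratinocyte genes were higher beside the basal keratins. Of the 13 keratinocyte markers outside the keratins, 11 were higher on P69 and 12 on P55 than on P42. Of all genes, 55.2% and 55.9% were. The medians of these markers were 2.71 and 3.06, beside 0.16 and 0.23 for all genes. At least 10-fold higher were 4 and 5 of them, where 0.693% and 1.16% of all genes were. The largest log2 differences on P69 were those of Lor (loricrin of the cornified envelope, 6.09), Cdh1 (E-cadherin, 4.56), and Col17a1 (a hemidesmosome collagen, 3.93), and the smallest those of Trp63 (-0.68), Ivl (involucrin, -0.07), and Dsg3 (desmoglein 3, 0.87). Epcam, a surface protein of epithelial cells and Langerhans cells, had log2 levels of 1.27, 4.06, and 3.98. The summed level of the list was 8.07, 8.34, and 7.77 on the log2 scale, and most of it came from 1 probe of Trp63, the regulator of basal keratinocytes. Without Trp63 the summed log2 level was 2.80, 5.90, and 5.77. The second Trp63 probe went from -3.98 on P42 to -0.83 and 0.06, so the probes of that gene disagree. Each keratinocyte marker was well above background on every array, except Cdh3, which was not on P42. The macrophage markers had a median of -0.42 on P69 and -0.56 on P55 against P42, ranging on P69 from -1.55 (Cd163) to 0.50 (Mertk), and their summed log2 level was 9.82, 9.61, and 9.08. The part of epidermal RNA in the keratin differences was not tested.

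Among the suprabasal keratins, those of the epidermis were mostly higher later, and those of mucosa, cornea, and footpad had no common pattern. Krt1, the type II keratin of the spinous layer, had log2 levels of -0.37, 3.00, and 2.72, 10.3-fold higher on P55 and 8.51-fold higher on P69. Krt10, its type I partner, had -0.06, 3.23, and 3.15, 9.76-fold and 9.28-fold higher, and its second probe gave log2 differences of 2.91 and 2.87. The Krt1 and Krt10 levels on the later arrays lay within 0.28 of each other for each gene. Krt77, a suprabasal type II keratin, had -2.70, 0.63, and -0.64, with P69 between the other arrays. Krt78, another type II keratin of upper epidermal layers, had -3.79, -1.34, and -4.29 and was high on P55 alone. Krt2, a keratin of the upper spinous and granular layers, had -2.94, -2.94, and -3.11 and did not differ by more than 1 SD of repeated spots. A second Krt2 probe was not well above background on P42 and at least 1.07 higher on P55 and 1.12 on P69 (log2), so the probes of this gene disagree. The median over the 5 epidermal members was 2.06 on P69 and 3.29 on P55, from 1.86 to 3.84 over the scalings.

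Krt13, the type I keratin of oral and esophageal mucosa, had log2 levels of 3.31, 5.95, and 5.29, 6.23-fold higher on P55 and 3.95-fold on P69. A second probe of Krt13 gave log2 differences of 0.51 and 0.62 only. Krt4, the mucosal partner of Krt13, did not follow it, with levels of -2.55, -3.25, and -3.27. Krt9, a keratin of footpad skin, had -2.78 on P55 and was well above background on neither other array, so it was at least 3.17-fold higher there than on P42. Krt84, known from the tongue and the hair cuticle, had -3.78 on P42 and was not well above background later, at least 2.35-fold lower on P69. Krt12, a corneal keratin, had -4.76 on P69 only, below the limit of detection of the other arrays, so no difference could be given. Krt76, a keratin of the palate, was on no array well above background.

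Among the keratins of the companion layer and infundibulum, Krt6a, Krt6b, Krt17, and Krt79 were higher on both later arrays than on P42. Krt75 had a value on P55 only and Krt16 on P69 only, each as a bound, because each was well above background on that array alone. In the inner root sheath, the layer that molds the growing hair, 3 members were well above background on the P55 array and on no other. The short stretches of DNA upstream of these 3 genes are printed here because the genes shared this pattern, beside those of Krt5 and Krt14, which differed from P42 on both later arrays. They were chosen after the values were seen. Each is the 250 bases before the transcription start in RefSeq (GRCm38.p6, minus strand), with the letters TATAAA and AGATAA in capitals, on Krt25 at chr11:99322952-99323201, Krt27 at chr11:99351119-99351368, Krt71 at chr15:101743098-101743347, Krt5 at chr15:101712906-101713155, and Krt14 at chr11:100206031-100206280.
Krt25: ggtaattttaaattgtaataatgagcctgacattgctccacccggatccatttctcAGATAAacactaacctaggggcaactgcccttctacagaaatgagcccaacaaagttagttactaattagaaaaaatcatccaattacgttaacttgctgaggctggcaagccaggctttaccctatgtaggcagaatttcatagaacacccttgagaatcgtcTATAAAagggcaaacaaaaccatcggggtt
Krt27: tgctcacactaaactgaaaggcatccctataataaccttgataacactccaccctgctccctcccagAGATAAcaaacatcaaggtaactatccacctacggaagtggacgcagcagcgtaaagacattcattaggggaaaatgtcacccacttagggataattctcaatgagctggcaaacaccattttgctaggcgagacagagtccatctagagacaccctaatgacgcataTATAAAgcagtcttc
Krt71: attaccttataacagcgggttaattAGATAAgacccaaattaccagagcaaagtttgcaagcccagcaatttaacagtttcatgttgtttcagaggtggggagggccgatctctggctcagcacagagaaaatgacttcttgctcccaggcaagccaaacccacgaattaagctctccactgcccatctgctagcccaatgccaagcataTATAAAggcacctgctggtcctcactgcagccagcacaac
Krt5: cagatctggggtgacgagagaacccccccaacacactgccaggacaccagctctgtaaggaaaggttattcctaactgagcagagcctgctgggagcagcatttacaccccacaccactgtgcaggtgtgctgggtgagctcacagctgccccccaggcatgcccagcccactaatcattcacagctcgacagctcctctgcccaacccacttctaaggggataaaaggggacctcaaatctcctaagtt
Krt14: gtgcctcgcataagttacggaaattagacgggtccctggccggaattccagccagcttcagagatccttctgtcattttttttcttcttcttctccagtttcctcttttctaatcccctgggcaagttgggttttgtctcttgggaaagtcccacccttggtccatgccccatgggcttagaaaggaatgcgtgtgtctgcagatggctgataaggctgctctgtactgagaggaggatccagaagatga

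Of 5 motifs searched on both strands (TATAAA, the core TATA box; AGATAA, the motif of GATA factors; TGANTCA, an AP-1 motif; GGGCGG, an Sp1 motif; and CTTTGAT, a TCF/LEF motif), the windows of Krt25, Krt27, and Krt71 each held TATAAA and AGATAA. The former began 30, 15, and 40 bases before the start of Krt25, Krt27, and Krt71, and the latter 194, 183, and 225 bases before it. The windows of Krt5 and Krt14 held none of the 5 motifs in these spellings. The Krt14 window does hold TGATAA, another spelling of the GATA factor motif, which was not searched. Among 32851 promoters of this length in the table, 12.4% held TATAAA and 9.99% AGATAA, and among 37 keratin windows 17 and 9 did. TGANTCA was in 6.75%, GGGCGG in 32.7%, and CTTTGAT in 3.21% of all promoters, and each in 2 keratin windows. AGATAA was also upstream of Krt2, Krt8, Krt10, Krt20, Krt73, and Krt76, which had other patterns. A match is only a description of the letters.

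Krt71, a type II keratin of all inner root sheath layers, had a log2 level of -0.58 on the P55 array and was not well above background on P42 (-6.50) or P69 (-6.59). It was at least 14.5-fold higher on P55 than on P42 and at least 21.6-fold higher than on P69. Krt25, a type I keratin that pairs with it, had -1.62 on P55 beside -6.57 and -7.28, which made it at least 7.07-fold and 10.5-fold higher. Krt27, a second type I partner, had -1.91 beside -4.33 and -4.74, at least 5.35-fold and 7.11-fold higher. For these 3 genes the P55 array alone carried the signal. The rest of the inner root sheath keratins did not share this. Krt28 had -0.73, 0.23, and -0.73, 1.94-fold higher on P55, and its second probe was well above background on P55 only. Krt72 had -0.94, -1.34, and -1.70 and Krt73 had 0.05, -0.21, and -2.09, both highest on P42. Krt26 was on no array well above background.

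In the companion layer and infundibulum, Krt17, a type I keratin that is also induced by injury, had log2 levels of -1.94, 1.71, and 0.16, 12.5-fold higher on P55 and 4.28-fold on P69. Krt6b, an injury-inducible type II keratin, had -1.09, 1.09, and 0.55, 4.51-fold and 3.10-fold higher, although its second probe was lower on P55 (-1.31) and P69 (-0.36). Krt6a, its near copy, was not well above background on P42 and had -2.80 on P55 and -3.67 on P69, at least 3.12-fold and 1.70-fold higher. The signals of these near-identical transcripts cannot be assigned with certainty to a single gene, because probe sequences were not used here. Krt16, the usual type I partner of the Krt6 proteins, was well above background on P69 only, with -3.35. Krt75, the companion layer keratin, had -3.36 on P55 only and was at least 2.12-fold higher there than on P42. Krt79, which marks the infundibulum and the sebaceous duct, had 2.48, 4.19, and 3.10, 3.27-fold higher on P55 and 1.54-fold on P69. The median of this layer was 1.71 on P55 and 1.09 on P69 against P42.

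The hair shaft keratins, which fill the hair fiber, had more members below P42 than above it on P69, some of them as bounds. On P55 the lower values were nearly all bounds. Of the 12 on the array, 9 were well above background on at least 1 array, where 84.0% of all genes were. On P69, 7 of 8 with a value were lower than on P42 and 1 was higher, against 44.8% of all genes lower. The median was -0.89. Krt31, Krt32, Krt40, and Krt87 were measured as lower and Krt81 as higher, while Krt33a, Krt34, and Krt82 were lower as bounds that entered only because they were well above background on P42. Without scaling the median was 0.39 and that of all genes 1.33, so the shaft keratins were 0.95 below all genes, beside 1.05 at the 75th percentile and 0.32 with quantile normalization. On P55, 6 of 9 were lower, against 44.1% of all genes. Of the 6, 5 were bounds that entered only because they were well above background on P42 (Krt31, Krt33a, Krt34, Krt82, and Krt87). Krt40 was measured as lower on P55, Krt32 and Krt81 were measured as higher, and Krt35 was higher as a bound. The median there was -0.26. It became 0.92 with quantile normalization and 0.23 with both signals required to be well above background.

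Krt35, a type I keratin of the hair matrix and cuticle that appears early in shaft formation, had a log2 level of 0.60 on P55 and was not well above background on P42 (-5.08) or P69 (-6.56). It was at least 32.9-fold higher on P55 than on P42 and at least 48.9-fold higher than on P69. Krt81, a type II keratin of the hair cortex, had -1.17, 1.17, and 0.96, 5.07-fold higher on P55 and 4.37-fold on P69. Both were thus above P42 on the P55 array, and Krt81 on the P69 array too.

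The lower members included Krt33a, a type I keratin of the cortex, with a log2 level of -2.33 on P42 and no signal well above background later, at least 6.41-fold lower on P69. Krt40, a type I keratin of the cuticle, had -1.71, -2.90, and -4.27, 5.91-fold lower on P69. Krt34, another cortical keratin, had -3.44 on P42 only, and Krt82, a cuticle keratin, had -4.01 on P42 only. Krt31 had -3.78 on P42 and -4.28 on P69, and Krt87 had -3.39 and -4.17, and neither was well above background on P55. Krt32 hardly moved, with -3.03, -2.81, and -3.49. Apart from Krt40 and Krt33a, these levels lay less than 2 log2 units above the lowest signal well above background.

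The keratin-associated proteins, which cross-link keratins in the hair shaft, were mostly lower on the later arrays. Of 49 genes on the array, 34 were well above background on at least 1, where 84.0% of all genes were. By array, 31 were so on P42, 22 on P55, and 26 on P69, where 77.6%, 70.4%, and 77.0% of all genes were. On P69, 30 of 33 with a value were lower than on P42 and 3 higher, against 44.8% of all genes lower, with a median of -1.41 that stayed between -1.61 and -0.36 over the scalings. On P55, 26 of 31 were lower, against 44.1% of all genes, with a median of -0.85. Of these values 9 on P69 and 10 on P55 were bounds. Apart from Krtap9-3 and Krtap24-1 on P69 and Krtap4-7 on P55, the bounds entered only because P42 was well above background. Their direction was thus set by the filter. The 3 most lowered on P69 were Krtap31-1 (-2.97), Krtap3-3 (-2.70), and Krtap5-4 (-2.47, a bound), and the 3 highest Krtap9-3 (0.90, a bound), Krtap24-1 (0.24, a bound), and Krtap19-4 (0.06). Krtap4-7 was well above background on P55 only, with -2.36, like Krt35.

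Of the simple epithelial keratins, Krt7 and Krt18 were higher on both later arrays than on P42, and Krt19 and Krt20 had a value on P69 only, as bounds, because they were well above background there alone. Krt18, the type I keratin of simple epithelia, had log2 levels of -1.23, -0.42, and -0.07, 1.75-fold higher on P55 and 2.23-fold on P69. Krt8, its obligate partner in simple epithelia, was on no array well above background, with -5.60, -5.61, and -7.08. Krt7, a keratin of glandular and duct cells, had -2.05, -0.85, and -1.40, 2.30-fold and 1.57-fold higher. Krt18 was thus seen without a signal from the probe of its usual partner Krt8. Krt8 had only 1 probe, so a failed probe and absent RNA cannot be told apart. Krt19, a keratin of the bulge and of simple epithelia, had -2.99 on P69 and was well above background on neither other array, at least 2.74-fold higher than on P42. Krt20, a keratin of intestine and of Merkel cells, had -3.02 on P69 only, at least 2.68-fold higher than on P42. These were the only grouped keratins besides Krt12 and Krt16 that were well above background on P69 alone.

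Of the 7 keratins in none of these groups, 2 are named because of their values. Krt42, a mouse type I keratin described in the nail, had log2 levels of 1.56, 4.77, and 4.42, 9.20-fold higher on P55 and 7.24-fold on P69, the pattern of the basal keratins. It is closely related to Krt17 and Krt14, and cross-hybridization was not tested. Krt222, a keratin-like gene, had 8.99, 8.50, and 7.73, but its second probe was on no array well above background, so its level is uncertain. The other 5 had log2 differences on P69 of -1.56 to 1.58 or no value.

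Partner keratins were compared within each pair. Krt5 and Krt14, and Krt1 and Krt10, were higher together on both later arrays. Krt71 and its partners Krt25 and Krt27 were well above background together on P55. Krt13 and Krt4, and Krt18 and Krt8, were not alike. Over all type I keratins the median against P42 was 1.16 on P69 and 1.76 on P55 (19 and 20 genes with a value), and over all type II keratins -0.22 and 1.18 (18 and 21 genes), of which the former ranged from -0.43 to 0.99 over the scalings.

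Along the chromosomes, keratins of one pattern did not form a single block. In the order of genes in the RefSeq table, the P55-only genes Krt25 and Krt27 flank Krt26, which was on no array well above background, and Krt28 follows. Krt35 lies between Krt32 and Krt36, near the cortical genes Krt33a, Krt34, and Krt31 that were highest on P42. On chromosome 15, Krt71 lies beside Krt5, and Krt75 near it, beside Krt90, which was also seen on P55 only. The highest array over the 45 keratins was P55 for 25, P42 for 15, and P69 for 5, where it was so for 38.2%, 35.3%, and 26.5% of all genes well above background on at least 1 array. This order depends on the scaling, with P69 highest for 25 of the 45 keratins and 71.8% of all genes without scaling, and P55 and P69 change places with the arrays exchanged. By group, at the 75th percentile, it was P55 for all 3 basal, 6 of 10 suprabasal, and 9 of 12 sheath keratins, and P42 for 6 of 9 shaft keratins.

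**Figure D3:**
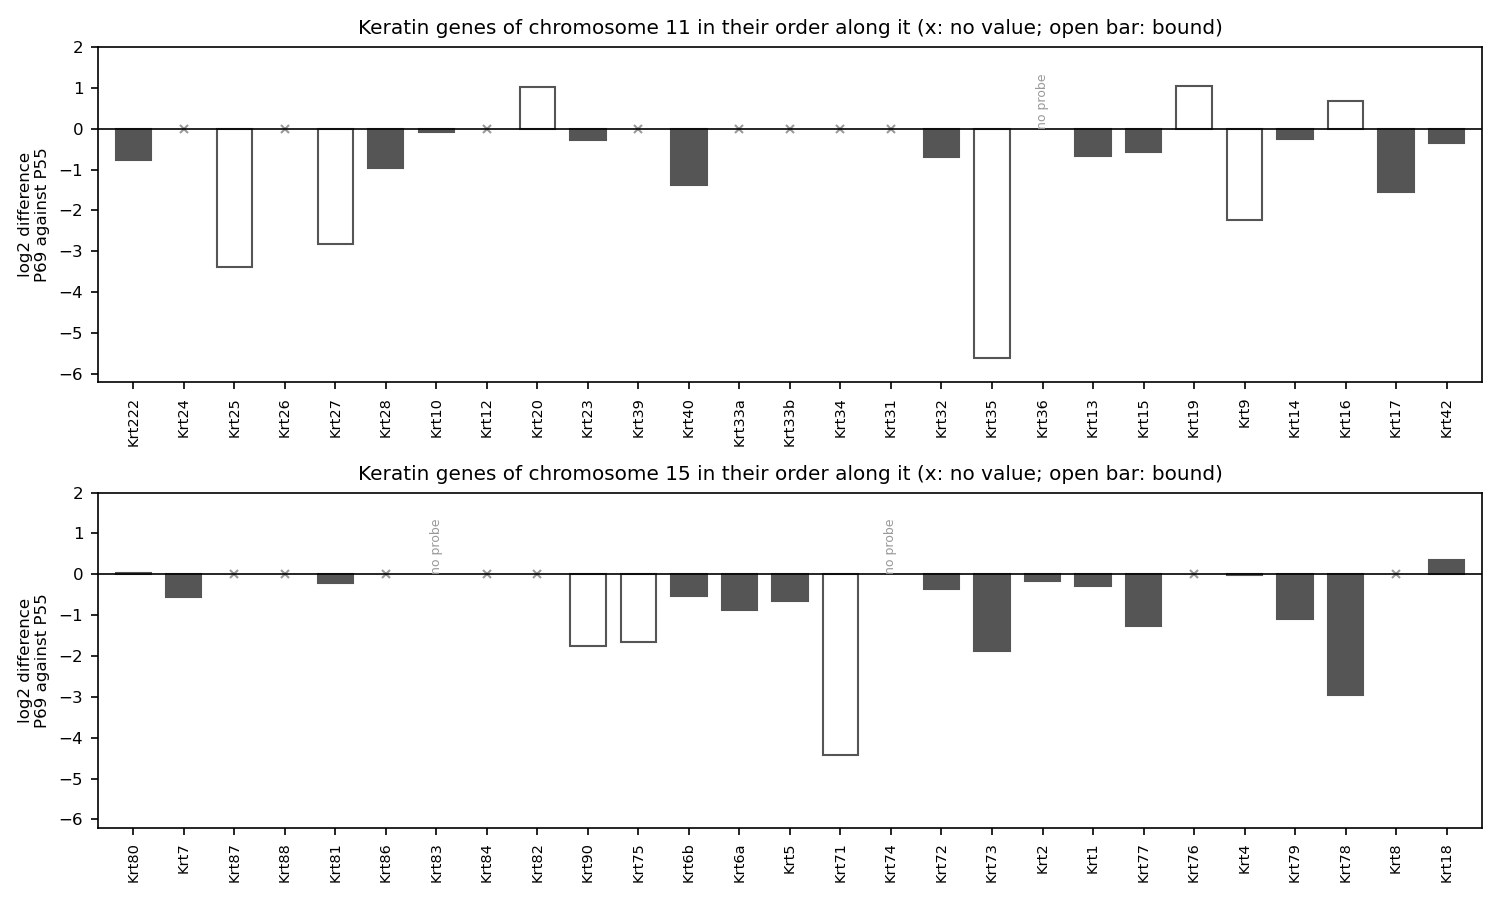
Log2 difference between the P69 and P55 arrays for the keratin genes of chromosome 11 (top) and chromosome 15 (bottom), in their order along each, with filled bars where both signals were well above background, open bars for bounds, and crosses where no value could be given. The longest bars are those of Krt35 (-5.61), Krt71 (-4.43), and Krt25 (-3.39), and all 15 keratins that differed at least 2-fold take the opposite sign when the 2 arrays are exchanged.

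Genes that work with keratins were set beside them. Filament partners are the desmosomal and envelope proteins to which keratins attach. Of 14 with a value, 12 were higher on P69 and 13 on P55 than on P42, with medians of 0.75 and 1.72. Of all genes, 55.2% and 55.9% were higher, with medians of 0.16 and 0.23. The highest on P69 were Pkp1 (plakophilin 1, 4.21), Dsp (desmoplakin, 3.22), and Trim29 (a keratin-binding protein, 2.65). The lowest were Pkp3 (plakophilin 3, -1.53), Pkp2 (plakophilin 2, -0.91), and Hrnr (hornerin, 0.03). Tchh, the trichohyalin of the inner root sheath, had log2 levels of -2.04 on P55 and -4.16 on P69 and was not well above background on P42 (-6.48). It was thus highest on the array where Krt71, Krt25, and Krt27 were seen.

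Other intermediate filament genes did not share the direction of the basal keratins. Their median against P42 was -0.47 on P69 and -0.72 on P55, the former positive with quantile normalization (0.19), with the array median (0.05), and without scaling (0.70). On P69 it was 0.13 to 0.64 below the median of all genes under each of the 5 scalings. Vim, the vimentin of macrophages and mesenchymal cells, had log2 levels of 5.68, 6.13, and 5.43. The highest on P69 were Lmnb1 (lamin B1, 0.79), Bfsp2 (0.70), and Des (desmin, 0.55), and the lowest Nefh (-1.98), Nes (nestin, -1.86, a bound), and Nefm (-1.81), with Nefh and Nefm encoding neurofilament proteins.

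Among regulators of keratin genes the share of higher members was near that of all genes. Against P42, 12 of 20 were higher on P69 and 11 of 19 on P55, beside 55.2% and 55.9% of all genes. Their medians were 0.12 and 0.42, beside 0.16 and 0.23 for all genes. The median on P69 was negative under another percentile scaling (-0.08). Vdr, the vitamin D receptor needed for hair cycling, had log2 levels of -3.92, 0.93, and -0.30. Gata3, a regulator of the inner root sheath, had -1.66, 0.52, and 1.38, and was higher on P69 (3.04) and P55 (2.18) than on P42. Tfap2a, an epidermal regulator, was also higher on both (2.98 and 2.10). Dlx3, a homeobox gene of the hair matrix, had -3.13, 0.63, and -2.99, so P55 alone was high. Foxn1, the regulator mutated in nude mice, had -3.94, -0.83, and -2.43, and Hoxc13, a regulator of hair shaft keratins, -3.55, -1.71, and -2.51, both highest on P55. These 3 are named because of their values, and other regulators of the hair follicle were highest on P42, such as Lef1 (-2.23, -2.64, and -3.93) and Msx2 (-1.93, -2.12, and -2.47). The lowest on P69 were Ehf (-1.80), Lef1 (-1.71), and Notch1 (-1.07).

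**Figure D4:**
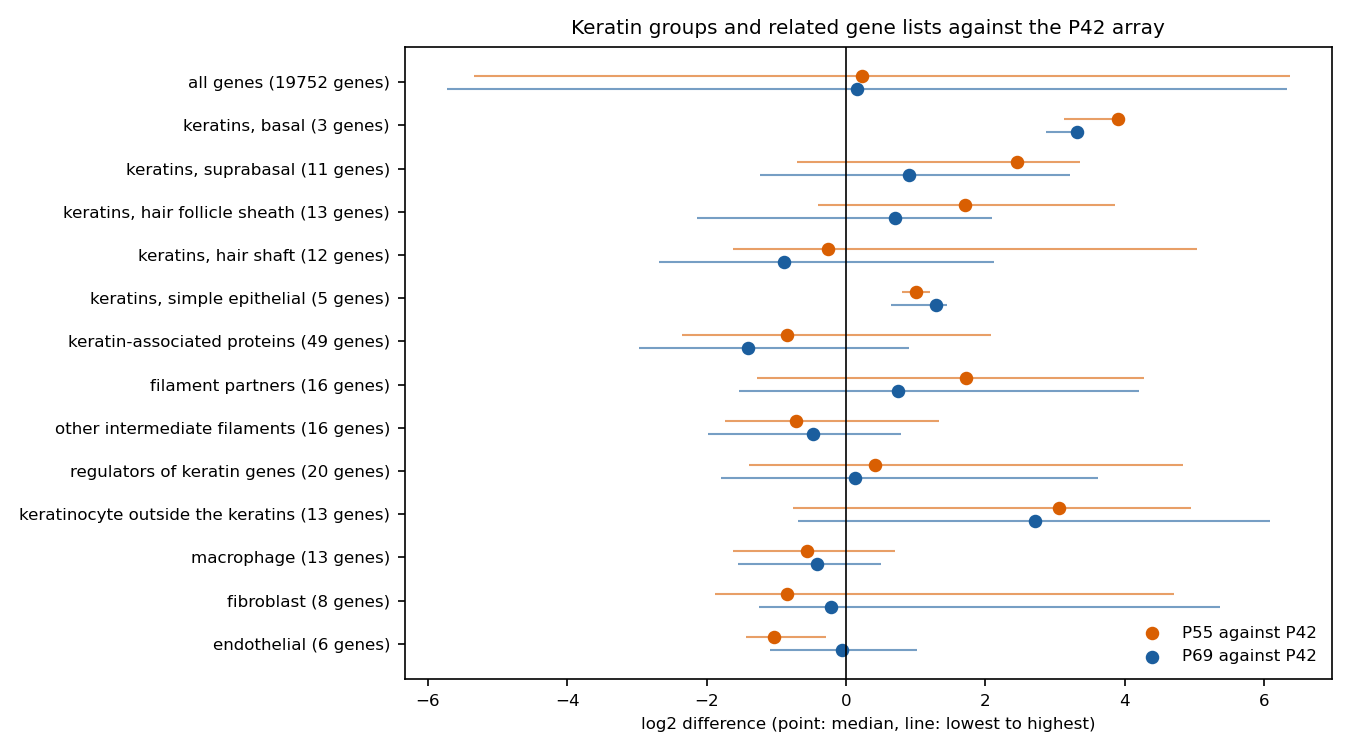
Median log2 difference (points) and range from the lowest to the highest gene (lines) of keratin groups and related gene lists on the P55 and P69 arrays against the P42 array, over genes with a value, with the number of genes on the array in the label. Basal keratins (3.91 and 3.32) and keratinocyte markers (3.06 and 2.71) lie farthest to the right, while macrophage markers and keratin-associated proteins lie left of 0, the macrophage median on P69 only with the percentile scalings and not with quantile normalization (0.08), the array median (0.10), or no scaling (0.74).

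Markers of other skin cells were measured beside the keratins. On P69 and P55 against P42, melanocyte markers had medians of 1.88 and 1.58, T cell markers 1.56 and 1.65, Langerhans cell markers 0.69 and 0.15, sebocyte markers 0.29 and 1.48, mast cell markers 0.19 and -0.49, fibroblast markers -0.21 and -0.85, and endothelial markers -0.06 and -1.03. Of the 6 Langerhans cell markers, Cd207, Itgax, and Cd1d1 were higher on P69 than on P42 (2.13, 2.17, and 3.36 on the log2 scale), and Cd74, H2-Aa, and H2-Ab1 were lower (-0.96, -1.51, and -0.74). On P55 the differences from P42 were 2.99 (Cd207), 2.73 (Itgax), -0.66 (Cd1d1, a bound), -0.02 (Cd74), 0.11 (H2-Aa), and 0.19 (H2-Ab1). The signs of the mast cell, Langerhans cell, fibroblast, and endothelial medians turned under at least 1 scaling on 1 of the arrays. The part of these cells in the keratin levels was not tested.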

How the data were processed

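CD11b+Gr1-F480+ macrophages of 3 stages were measured on 1 array each, from RNA pooled over 3 mice. The authors quantified the arrays with Feature Extraction (10.7.3.1) and deposited spot intensities on a linear scale, background-corrected by that software and not normalized between arrays. They also deposited a log2 table of 36409 probes, made by steps not given in the sources used here. Its rows are centered on their median over the arrays, with column medians of 0.36, 0, and 0, and it holds 53 of the 61 keratin probes.

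From the deposited intensities, control spots and outlier spots (162, 274, and 281) were left out, spots of a probe were averaged, and the 75th percentile of the array was subtracted from its log2 signals (percentiles of 414, 497, and 927). A probe was called well above background by the software's flag on at least 0.5 of its spots. No spot was saturated. The number of arrays limits the precision. RefSeq transcripts named 26056 of 55681 probes, and the probe with the highest mean signal represented a gene. Gene order and promoters came from RefSeq tables (GRCm38.p6), and promoters were found for 36 keratin symbols. The design annotation uses an older build, so no probe coordinates are given.

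Values are given for every basal, suprabasal, and simple epithelial keratin, for sheath and shaft keratins well above background, and for the 3 highest and 3 lowest genes on P69 of the related lists, and for the defining genes Adgre1, Itgam, Vim, Trp63, Cdh1, and Epcam, with smaller marker lists given by medians. Dlx3, Foxn1, Hoxc13, Msx2, Tchh, Krtap4-7, Krt42, and Krt222 were named after their values were seen. The members and lists were chosen with earlier results of these data known. All arrays lay on 1 slide. Alternatives were other scalings, normexp (offset 50, limma 3.58.1 in R 4.3.3), other filters, other probes, the log2 table, and the P55 and P69 arrays exchanged. The calculation of a measured difference was tested on simulated data. That test held no bounds and did not cover scaling, probe choice, or naming. Other calculations used Python 3.11.15 with pandas 2.3.3 and numpy 2.4.6.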

Additional observations from a re-analysis of the deposited data

How the results depend on the processing

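Of the 195 summary values of the keratins recomputed under 13 alternatives (median, counts at 2-fold and 10-fold), 117 stayed within the error of repeated spots or within 1.5 times the count, 72 moved further, and 6 turned their sign. The cause was not tested in any case, apart from the exchange of arrays, whose effect follows from its construction. Numbers follow as P69 against P42, P55 against P42, and P69 against P55, and a comparison not named did not move. The keratin median (0.63, 1.20, and -0.65) was 0.42, 0.83, and -0.48 with the 75th percentile of probes well above background on all 3 arrays, 2.33 (P55 against P42) and -0.42 (P69 against P55) with quantile normalization, 0.83 and 2.22 against P42 with the array median, and 1.79, 1.90, and 0.30 without scaling. Without scaling the median of all genes was 1.33, 0.53, and 0.73. It was -0.21 and 0.64 against P42 with normexp, 1.94 for P55 against P42 with both signals well above background, -0.13 and 0.81 against P42 with positive and significant signals, and -0.28 and 0.67 with no filter. In the log2 table it was 2.21, 0.65, and 0.65, and with the arrays exchanged 1.20, 0.63, and 0.65.

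The 2 keratins at least 10-fold higher on P69 than on P42 (Krt5 at 3.32 and Krt15 at 3.35 on the log2 scale, just past 10-fold) became 0 with the percentile of detected probes, 6 with the array median or without scaling, 1 with normexp, with the median over probes, or with the probe brightest on P42, 10 in the log2 table, and 7 with the arrays exchanged. The 7 higher on P55 became 4 with the percentile of detected probes, 11 with the array median, 2 with normexp, 3 in the log2 table, and 2 with the arrays exchanged. Against P42, 10-fold lower keratins rose from 0 to 1 on P69 with positive and significant signals or no filter, and to 1 on P55 in the log2 table. Between the later arrays, the 3 at least 10-fold lower became 1 with normexp, 0 with both signals well above background, 5 with positive and significant signals or no filter, and 0 in the log2 table or exchanged, where 5 and 3 were 10-fold higher in place of 0.

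At 2-fold, the 7 lower on P69 than on P42 became 3 with quantile normalization, 2 without scaling, 3 with both signals well above background, 14 with positive and significant signals or no filter, 11 in the log2 table, and 2 exchanged. The 23 higher on P55 became 14 with both signals well above background, and the 2 lower became 4 with the percentile of detected probes, 0 with quantile normalization or normexp, 1 with the array median, without scaling, or with both signals, 12 with positive and significant signals or no filter, 11 in the log2 table, and 7 exchanged. For P69 against P55, the 2 higher became 0 with quantile normalization, normexp, or both signals, 1 with the array median, 4 without scaling, 5 with positive and significant signals or no filter, 16 in the log2 table, and 13 exchanged. The 13 lower became 6 without scaling or with both signals, 5 in the log2 table, and 2 exchanged.

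Group medians turned their sign in 23 of 195 cases. For P69 against P55 these were the basal keratins with quantile normalization (0.15), without scaling (0.33), in the log2 table (0.57), and exchanged (0.57). The suprabasal median became 0.24 without scaling, 0.66 in the table, and 0.47 exchanged. The sheath median became 1.88 in the table and 1.31 exchanged. The shaft median became 0.44 without scaling, 0.17 in the table, and 1.03 exchanged, and the simple epithelial one -0.10 with both signals, -0.80 in the table, and -0.69 exchanged. Against P42, the shaft median became 0.92 (quantile) and 0.23 (both signals) on P55 and 0.39 (no scaling) on P69, the suprabasal median -0.17 on P69 with positive and significant signals or no filter, and the sheath median -0.0011 and -0.096 in these settings and -0.095 on P55 in the table. The basal medians against P42 kept their sign in all settings.

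Of single keratins at least 2-fold different from P42, those that took the opposite sign did so in the log2 table. On P69 they were Krt16 (-1.78) and Krt19 (-1.25). On P55 they were Krt9 (-1.85), Krt25 (-0.71), Krt27 (-0.41), Krt35 (-1.48), Krt71 (-0.095), Krt75 (-0.53), and Krt78 (-0.50, also -0.50 exchanged). Apart from Krt78, each of these table values compared 2 signals not well above background, to which the main rule gives no value. They are thus not measured reversals. All 15 keratins that differed at least 2-fold between the later arrays took the opposite sign in the table and with the arrays exchanged. Without these 2 settings, Krt5 stayed between 3.12 and 4.49 on P69 and between 3.33 and 4.53 on P55 against P42, and Krt35 between 3.16 and 5.85 on P55.

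Values near the limit of detection are bounds, and 10 to 17 of the keratin differences in a comparison are of this kind. Naming probes by a gene column of the scanner files was not run, because the files hold none. No paired analysis was possible because each stage has 1 array.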
